A study of Mus musculus with 10 samples.

Results

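The loci described here are those of 9 acute phase genes of mouse liver. They are the serum amyloid A genes Saa1, Saa2, Saa3 and Saa4, the fibrinogen chain genes Fga, Fgb and Fgg, the haptoglobin gene Hp and the hepcidin gene Hamp. Peaks were taken by position alone, as all peaks of the 9 deposited lists that overlap any of 4 mm9 windows. The windows are chr7:53950000-54030000 for the Saa genes, chr3:82800000-82870000 for fibrinogen, chr8:112080000-112120000 for Hp and chr7:31710000-31750000 for Hamp. Together they span 230 kb and hold 385 of the 344928 peaks of all lists. No mm9 gene annotation was used here, so a peak is assigned to a window and a position, not to a gene. In the GRCm38.p6 gene order the members have close neighbours (Saal1 and Hps5 beside the Saa genes, Lrat and Plrg1 beside fibrinogen, Txnl4b and Dhodh beside Hp, Hamp2 and Usf2 beside Hamp), and a peak may belong to one of these.

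The series profiled H3K27Ac, the histone H3 acetylation of active promoters and enhancers, in normal mouse liver that was either formalin-fixed and paraffin-embedded (FFPE) or fresh frozen. In FiTAc-seq, FFPE sections were homogenized with heat in detergent buffer and sonicated, at 50 °C for 40 or 5 min, at 65 °C for 40 or 5 min, or at 80 °C for 40 min. In FiT-seq, FFPE tissue was broken up with proteinase K, with 1 library for H3K27Ac and 1 for H3K4me2, the dimethylation found at promoters and enhancers. Fresh frozen liver gave 1 H3K27Ac library, which the series calls matched, and an FFPE input sample was not analysed here. Conditions are written as homogenization temperature and sonication time (65 °C/5 min). Only 65 °C/5 min had 2 libraries, and the labels do not tie them to separate animals. All samples were full liver sections of normal mice with no genotype, strain, age or treatment given, so a mark on more cells and more of the mark per cell cannot be told apart. The liver label was not checked beyond these loci.

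Acute phase proteins are made largely by hepatocytes and their output changes with inflammation, mainly through interleukin 6 acting on STAT3 and interleukin 1 acting on NF-κB and C/EBP factors. Saa1 and Saa2 encode the inducible serum amyloid A proteins of liver, Saa4 encodes a constitutive form, and Saa3 is expressed mainly outside hepatocytes, in macrophages and fat. Fga, Fgb and Fgg encode the chains of the clotting protein fibrinogen, Hp encodes the plasma protein that binds free haemoglobin, and Hamp encodes hepcidin, the hormone that lowers iron export from cells.

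Promoter sequences are shown because those of Saa1 and Saa2, and of Hamp and its neighbour Hamp2, are alike, whereas those of the fibrinogen chain genes are not. RefSeq (GRCm38.p6) had a sequence for 8 of the 9 members, all but Hp, and for Hamp2. The 250 bases before the gene start are given 5′ to 3′ for Saa1, Saa2, Hamp, Hamp2, Fga and Fgb, with matches in capitals. Those of Saa3, Saa4 and Fgg were searched in the same way but are not printed. Motifs for STAT, C/EBP, NF-κB, HNF1, HNF3, BMP signalling and the TATA box were sought on both strands, with the letters given after the sequences.
Saa1, GRCm38.p6 chr7:46742981-46743230, minus strand: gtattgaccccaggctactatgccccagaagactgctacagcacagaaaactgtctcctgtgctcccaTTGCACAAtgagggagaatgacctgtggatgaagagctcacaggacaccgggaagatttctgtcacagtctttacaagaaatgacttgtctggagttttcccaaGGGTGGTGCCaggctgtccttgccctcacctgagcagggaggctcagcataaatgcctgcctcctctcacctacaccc
Saa2, GRCm38.p6 chr7:46751583-46751832, plus strand: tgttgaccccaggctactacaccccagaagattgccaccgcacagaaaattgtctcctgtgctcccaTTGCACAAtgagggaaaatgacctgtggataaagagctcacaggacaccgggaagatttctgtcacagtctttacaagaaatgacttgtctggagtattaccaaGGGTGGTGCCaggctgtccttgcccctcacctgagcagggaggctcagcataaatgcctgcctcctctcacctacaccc
Hamp, GRCm38.p6 chr7:30944030-30944279, minus strand: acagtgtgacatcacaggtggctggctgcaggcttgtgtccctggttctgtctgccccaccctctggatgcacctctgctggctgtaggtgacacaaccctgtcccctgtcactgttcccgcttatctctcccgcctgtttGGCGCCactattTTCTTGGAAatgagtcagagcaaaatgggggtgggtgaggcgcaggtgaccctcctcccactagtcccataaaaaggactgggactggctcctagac
Hamp2, GRCm38.p6 chr7:30924182-30924431, minus strand: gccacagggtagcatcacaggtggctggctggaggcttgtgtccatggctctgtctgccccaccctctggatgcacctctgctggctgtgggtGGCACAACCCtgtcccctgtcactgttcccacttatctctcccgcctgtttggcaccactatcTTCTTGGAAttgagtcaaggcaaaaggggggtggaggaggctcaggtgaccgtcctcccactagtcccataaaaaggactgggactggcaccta
Fga, GRCm38.p6 chr3:83025903-83026152, plus strand: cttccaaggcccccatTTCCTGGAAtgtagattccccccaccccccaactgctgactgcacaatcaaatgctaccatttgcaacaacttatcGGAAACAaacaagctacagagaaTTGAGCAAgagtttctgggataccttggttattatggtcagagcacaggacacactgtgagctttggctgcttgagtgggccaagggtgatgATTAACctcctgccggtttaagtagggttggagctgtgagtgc
Fgb, GRCm38.p6 chr3:83049864-83050113, minus strand: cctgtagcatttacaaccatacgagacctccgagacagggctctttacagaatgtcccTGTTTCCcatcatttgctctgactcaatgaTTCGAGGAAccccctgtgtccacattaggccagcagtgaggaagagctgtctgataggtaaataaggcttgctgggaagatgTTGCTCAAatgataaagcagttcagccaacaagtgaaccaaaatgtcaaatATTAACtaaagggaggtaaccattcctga
Saa1 and Saa2 were identical at 94.8% of aligned positions, and Hamp and Hamp2 at 89.7%, whereas Fga and Fgb were identical at 50.5%. All other pairs among the genes with a sequence lay between 47.4% and 54.6%. How the authors treated reads that match both copies was not given in the sources used here, and placement of reads at these genes was not tested.

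Matches among the members were as follows. The STAT motif, TTCNNNGAA, held by 7.02% of 32851 promoters of the same length, was found in Fga, Fgb, Hamp and Hamp2. The C/EBP motif, TTGCNNAA (9.56% of promoters), was found in Saa1, Saa2, Saa3, Saa4, Fga and Fgb. The HNF1 motif, GTTAAT (6.43% of promoters), was found in Fga and Fgb. The HNF3 motif, TGTTTNC (17.8% of promoters), was found in these as well. The BMP-responsive motif, GGCGCC (9.59% of promoters), was found in Hamp but not in Hamp2. The NF-κB motif, GGGNNNNNCC, a loose one held by 45.8% of promoters, was found in Saa1, Saa2, Saa4, Fgg and Hamp2, with overlapping matches on both strands in Fgg. No matches overlap in the sequences printed. The TATA motif, TATAAA (12.4% of promoters), was found in none of them. Each match is a run of letters in this window and no peak was placed on it, since the peaks are on mm9.

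Across the 4 windows, H3K27Ac peaks covered a larger share of bases than over the genome in fresh frozen liver and in all 6 FiTAc-seq libraries, although at 80 °C/40 min this rested on 1 peak. The windows held 84 peaks in the 50 °C/40 min list and 27 in the 50 °C/5 min list. They held 80 in the 65 °C/40 min list and 74 and 78 in the pair at 65 °C/5 min, a mean of 76 ± 2.83 (SD, n = 2). Fresh frozen liver had 38. The 80 °C/40 min list, of 65 peaks in all, had 1. FiT-seq had 0 for H3K27Ac, from a list of 115 peaks, and 3 for H3K4me2, from a list of 11746. How finely a broad site was divided set much of these counts. With peaks within 500 bp merged they were 34 and 13 at 50 °C with 40 and 5 min, 31 at 65 °C/40 min, a mean of 31.5 in the pair and 25 in fresh frozen liver.

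The share of window bases under a peak depends less on that division. It was 20.7% at 50 °C/40 min, where the same list covered 1.41% of the genome. It was 4.005% at 50 °C/5 min, beside 0.667% of the genome. At 65 °C/40 min it was 23.9%, beside 1.34%. The pair at 65 °C/5 min had 28.2% and 24.5%, beside 1.72% and 1.56%. Fresh frozen liver had 7.36%, beside 0.795%. The windows were therefore covered 14.6, 6.01, 17.8, 16.4, 15.7 and 9.26 times as densely as the genome, in the order of the lists just given. At 80 °C/40 min the single peak covered 0.0691%, beside 0.000481% of the genome, a ratio of 143.7 that rests on that peak. The windows were chosen around liver genes, so this density describes them and is no test.

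**Figure D1:**
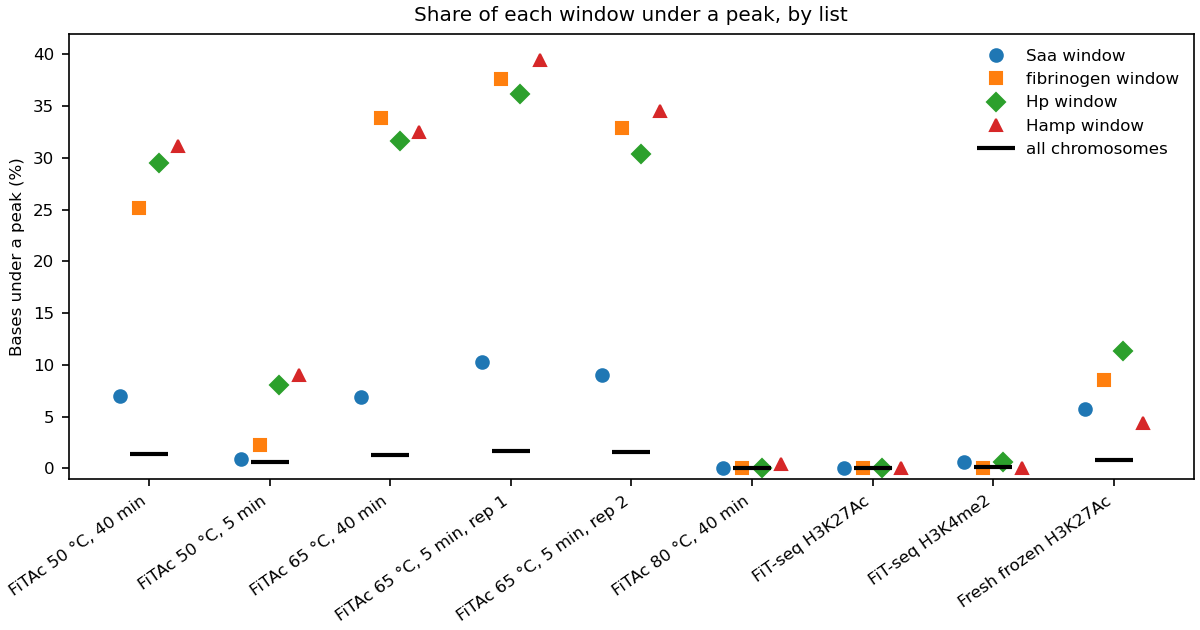
Share of bases under a peak (percent, vertical axis) in each of the 9 lists (horizontal axis), with a symbol for each window and a black bar for the whole genome. The fibrinogen, Hp and Hamp windows sit between 25.2% and 39.5% in the 4 FiTAc-seq libraries other than 50 °C/5 min and 80 °C/40 min, whereas the Saa window sits between 6.87% and 10.3% there.

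The windows fell into 2 levels in the FiTAc-seq libraries other than 50 °C/5 min and 80 °C/40 min. In the Saa window the share was 7.01% at 50 °C/40 min, 0.946% at 50 °C/5 min, 6.87% at 65 °C/40 min, 10.3% and 9.03% in the pair and 5.78% in fresh frozen liver. In the fibrinogen window it was 25.2%, 2.29%, 33.9%, 37.7%, 32.9% and 8.58% in the same lists. In the Hp window it was 29.5%, 8.05%, 31.7%, 36.2%, 30.4% and 11.3%. In the Hamp window it was 31.2%, 9.07%, 32.5%, 39.5%, 34.5% and 4.43%. Hamp was the most covered window in 4 of the 5 long FiTAc-seq lists, second to fibrinogen at 65 °C/40 min, but the least covered in fresh frozen liver. The means of the pair were 35.3% ± 3.34 (SD, n = 2) for fibrinogen, 33.3% ± 4.11 for Hp and 37.0% ± 3.52 for Hamp. The order was the same in both libraries, with Hamp above fibrinogen and fibrinogen above Hp. Saa (9.65% ± 0.887) lay below all of them.

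Much of each window was empty in every list. The first peak of any list started at 31727363 in the Hamp window and at 112088692 in the Hp window. The last ended at 82860132 in the fibrinogen window and at 112111968 in the Hp window. In the Saa window 1 peak, of replicate 2 at 65 °C/5 min, lay beyond 54003244.

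**Figure D2:**
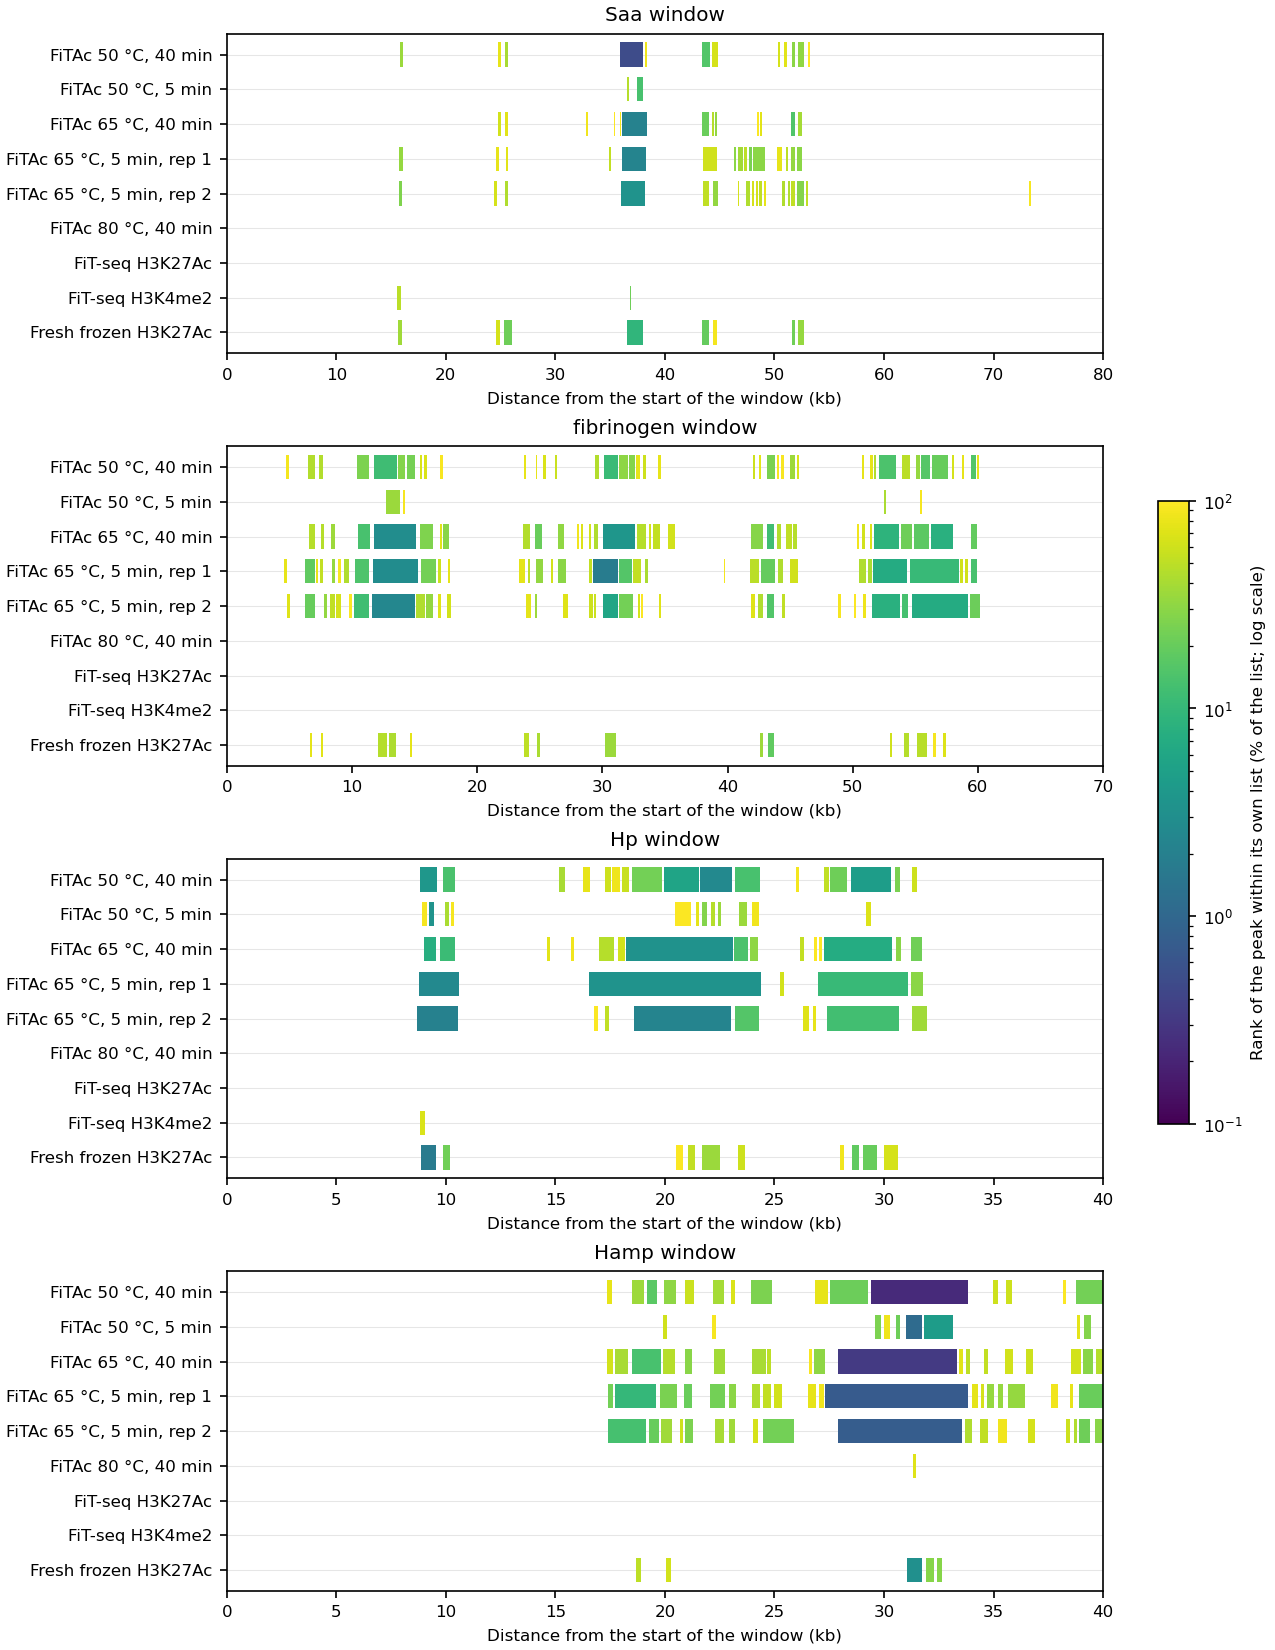
Positions of all peaks in the 4 windows, as distance from the window start in kilobases (horizontal axis), with a row for each list and colour for the rank of the peak as a percent of its own list (log scale, dark for high ranks). The darkest bars are the Hamp site with ranks of 148 to 426 and the Saa site with rank 321 at 50 °C/40 min, and both are wider there than the fresh frozen peaks of 704 and 1431 bp.

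The Saa window held 8 fresh frozen peaks, and a single site stood above the rest. In the value of each peak, read as the authors' −log10 of the q-value, this site had 89.3 at 50 °C/40 min, 11.2 at 50 °C/5 min, 68.7 at 65 °C/40 min, 70.5 and 50.0 in the pair and 36.7 in fresh frozen liver. The fresh frozen peak was chr7:53986527-53987957, of 1431 bp. Values are not comparable between libraries of unknown depth, so ranks within a list were set side by side. The ranks were 321, 5211, 1329, 1345, 1949 and 4467 in the same order. Ranks also depend on list length, which ran from 38409 to 65332 peaks in these lists. As a percent of its own list the site stood at 0.491%, 13.6%, 2.07%, 2.23%, 3.44% and 9.26%. The FFPE peaks there were 2091 to 2270 bp wide outside the 50 °C/5 min list, which had 2 separate peaks within it. It was the only Saa site met at 50 °C/5 min, and it carried an H3K4me2 peak, chr7:53986791-53986936, with a value of 7.38 and rank 2581 of 11746.

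The other 7 Saa sites were lower in every list, with values from 4.69 to 23.1 in fresh frozen liver, and had no peak at 50 °C/5 min. At chr7:53965675-53966037 the value was 12.2 at 50 °C/40 min, 10.2 and 12.5 in the pair and 13.2 in fresh frozen liver, and no peak was listed at 65 °C/40 min. This site met the other H3K4me2 peak of the window, chr7:53965565-53965891, with a value of 5.57. At chr7:53975353-53976014 the value was 10.4 at 50 °C/40 min, 4.90 at 65 °C/40 min, 5.42 and 7.74 in the pair and 21.4 in fresh frozen liver. The FFPE peaks there ended between 53975632 and 53975637, and the remaining 377 bp of the fresh frozen peak were under no FiTAc-seq peak. These bases make up most of the 422 bp of fresh frozen peak, all in the Saa window, that no FiTAc-seq list covered.

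Between the fresh frozen peaks that end at 53994768 and start at 54001566, the Saa window had FFPE peaks with no fresh frozen counterpart, a stretch picked after its values were seen. Replicates 1 and 2 at 65 °C/5 min had 7 and 8 peaks there that covered 44.7% and 28.5% of 6797 bp. The 40 min lists at 50 °C and 65 °C had 2 peaks each and covered 6.80% and 6.59%, and the 50 °C/5 min list had none. The highest by mean rank in the pair were chr7:53997654-53997952, with values of 13.9 and 7.74, and chr7:53998030-53999153, with 11.4 and 6.63. The peaks chr7:53997211-53997448 and chr7:54001089-54001277 tied for the third place, each with 7.54 and 7.74. Of these 4, chr7:54001089-54001277 had a peak at 50 °C/40 min, chr7:53998030-53999153 had one at 65 °C/40 min, and none had one at 50 °C/5 min.

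The fibrinogen window held 15 fresh frozen peaks, none of them high, and the FFPE lists ranked other sites first. The highest fresh frozen peak, chr3:82843208-82843685, had a value of 17.2 at 50 °C/40 min, 29.4 at 65 °C/40 min, 18.8 and 20.98 in the pair and 24.0 in fresh frozen liver. Its ranks were 16289, 7815, 11686, 8785 and 9030 in those lists, and no peak was listed at 50 °C/5 min. It ranked highest at 65 °C/40 min and lowest at 50 °C/40 min.

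At the left of the window, 3 narrow fresh frozen peaks between 82812067 and 82814830 had values of 10.5, 11.7 and 6.02 and widths of 728, 635 and 227 bp. A single peak of 3427 bp at 65 °C/40 min (value 60.6, rank 1869), and of 3620 and 3424 bp in the pair (65.3, rank 1670, and 56.2, rank 1373), covered all 3. At 50 °C/40 min a peak of 1829 bp met the first and second (30.7, rank 7565). At 50 °C/5 min a peak of 1113 bp met the same ones with a value of 6.59, the highest of that list in the window.

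At chr3:82830177-82831056 the value was 32.1 at 50 °C/40 min, 55.0 at 65 °C/40 min, 75.9 and 39.8 in the pair and 14.1 in fresh frozen liver. The ranks were 7004, 2439, 1073, 3288 and 17002. This was the highest site of the window at 50 °C/40 min and in replicate 1, and it had no peak at 50 °C/5 min. On the right of the window, 5 fresh frozen peaks from 82852982 to 82857477 had values between 4.27 and 10.5. In replicate 2 a single peak of 4516 bp, chr3:82854708-82859223, with a value of 36.7, met 3 of them. No H3K4me2 peak lay in the fibrinogen window.

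The Hp window held 10 fresh frozen peaks in 3 clusters whose order differed between fresh frozen and FFPE lists. The first peak, chr8:112088885-112089558, had a value of 53.0 at 50 °C/40 min, 17.5 at 50 °C/5 min, 39.9 at 65 °C/40 min, 67.0 and 59.6 in the pair and 63.0 in fresh frozen liver. Its ranks were 2547, 1349, 4830, 1549, 1137 and 829. It was the only fresh frozen peak of the 4 windows among the 1000 highest of that list. An H3K4me2 peak, chr8:112088808-112089050, with a value of 4.67, overlapped its edge.

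The middle cluster, 4 fresh frozen peaks from 112100514 to 112103645, was low in fresh frozen liver and high in FFPE tissue. Its fresh frozen values were 3.87, 9.01, 14.0 and 8.03, with ranks from 17060 to 45853. In replicate 1 a single peak of 7848 bp, chr8:112096518-112104365, met all 4 with a value of 60.1 and rank 2067. In replicate 2 the main peak was 4431 bp wide, with a value of 57.9 and rank 1266. At 65 °C/40 min it was 4854 bp wide, with 58.5 and rank 2084. At 50 °C/40 min the highest was chr8:112101581-112103072, with 61.0 and rank 1688. The 50 °C/40 min and 65 °C/40 min lists had their highest Hp window peak in this cluster. The 50 °C/5 min list, the pair and fresh frozen liver had theirs at the first peak. At 50 °C/5 min the middle cluster had values of at most 7.57.

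The third Hp cluster, from 112108003 to 112110628, had a value of 49.9 at 50 °C/40 min, 4.70 at 50 °C/5 min, 41.5 at 65 °C/40 min, 33.4 and 25.0 in the pair and 24.3 in fresh frozen liver. All 4 of its fresh frozen peaks were met in the 4 lists other than 50 °C/5 min, which met 1 of them.

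The Hamp window held the highest H3K27Ac site of all 4 windows in each of the 5 long FiTAc-seq lists. At the fresh frozen peak chr7:31741041-31741744 the value was 101 at 50 °C/40 min, 23.6 at 50 °C/5 min, 100 at 65 °C/40 min, 94.1 and 75.3 in the pair and 54.4 in fresh frozen liver. The ranks were 148, 417, 209, 421, 426 and 1488, so the site stood among the 500 highest of each long FiTAc-seq list. The FFPE peak was 4449 bp wide at 50 °C/40 min, 5441 bp at 65 °C/40 min, 6494 and 5690 bp in the pair and 748 bp at 50 °C/5 min. The fresh frozen peak was 704 bp wide, and 2 further fresh frozen peaks of 400 and 211 bp lay under the same FFPE peaks, except at 50 °C/5 min, where both lay under a separate peak of 1318 bp (value 16.3, rank 1705). Usf2, which encodes a widely expressed transcription factor, neighbours Hamp, and the site was not assigned to either.

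The sole peak of the 80 °C/40 min list in any window was at this site, chr7:31741309-31741467, 159 bp wide, with a value of 4.45 and rank 46 of 65. Whether reads pile up there without the antibody was not tested. FiT-seq listed no peak in the Hamp window for either mark. Of all consecutive 40 kb stretches of the genome, 0.155% held a FiT-seq H3K27Ac peak and 12.8% an H3K4me2 peak. Left of the site, from 31730276 to 31741040, fresh frozen liver had no peak. FFPE peaks covered 57.5% of these 10765 bp at 50 °C/40 min, 9.24% at 50 °C/5 min, 53.2% at 65 °C/40 min and 66.3% and 55.8% in the pair.

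**Figure D3:**
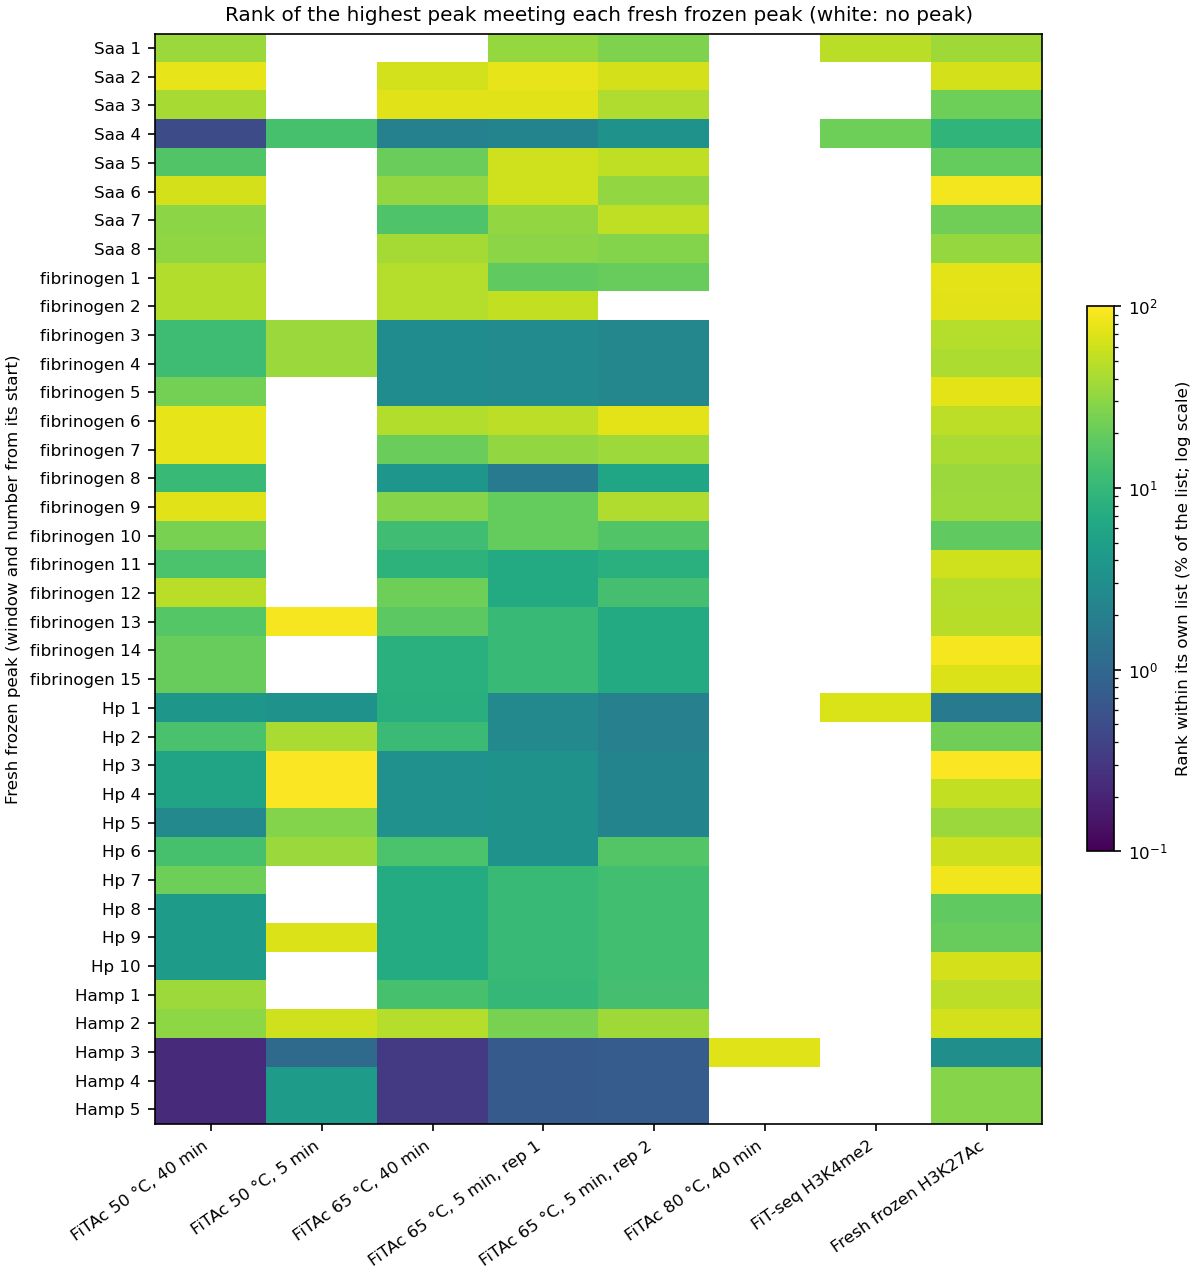
Rank of the highest peak that meets each of the 38 fresh frozen peaks (rows, numbered from the start of each window), as a percent of its own list (colour, log scale, dark for high ranks), in 8 lists (columns). White marks no peak. The 50 °C/5 min column is white at 23 rows, and the 80 °C column is coloured at 1 row, the third Hamp peak.

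In 4 of the 5 long FiTAc-seq lists, all but 50 °C/5 min, a larger share of fresh frozen peaks was met in the windows than over the genome. Of 38, the 50 °C/40 min list met 38 (100%, Wilson 95% interval 90.8 to 100), beside 73.2% of all fresh frozen peaks. The 65 °C/40 min list met 37 (97.4%, 86.5 to 99.5), beside 72.0%. Replicates 1 and 2 at 65 °C/5 min met 38 and 37, beside 73.0% and 70.2%. At 50 °C/5 min the list met 15 (39.5%, 25.6 to 55.3), beside 43.7%, a background share inside that interval. With the rule that the peak's midpoint lie within the other peak, the share at 50 °C/5 min was 21.1%. The shares of all fresh frozen peaks were taken with an overlap of 1 bp only. Whether the windows stand above the genome under a stricter rule was therefore not tested. Intervals cover counting error only, and neighbouring peaks are not independent.

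By window, the counts met at 50 °C/5 min were small. That list met 4 of 5 fresh frozen peaks in the Hamp window and 7 of 10 in the Hp window. It met 3 of 15 in the fibrinogen window and 1 of 8 in the Saa window. Wilson intervals were 37.6% to 96.4% for Hamp and 39.7% to 89.2% for Hp. They were 7.05% to 45.2% for fibrinogen and 2.24% to 47.1% for Saa. All of them hold the share over the genome, 43.7%, and a difference between windows was not tested. The 15 peaks met in that list had a median fresh frozen value of 14.0 and a median width of 635 bp. The 23 not met had 9.78 and 311 bp. Of the 38 peaks, 15 were met in all 5 long FiTAc-seq lists, or 39.5%, beside 41.1% of all fresh frozen peaks. None of the 38 was missed by all 5, beside 16.6% of all fresh frozen peaks. The misses outside 50 °C/5 min were the Saa peak at 53965675 described above and a fibrinogen peak, chr3:82807520-82807691, with no peak in replicate 2.

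The other 3 lists met few of these peaks. The 80 °C/40 min list met 1 (2.63%, 0.466 to 13.5), beside 0.112%. FiT-seq H3K27Ac, with 115 peaks in its whole list, met 0, beside 0.0829%, with an upper bound of 9.18%. FiT-seq H3K4me2 met 3 (7.89%, 2.72 to 20.8), beside 16.0%. In the other direction, all 3 H3K4me2 peaks met a peak at 50 °C/40 min, in both libraries of the pair and in fresh frozen liver, beside 69.3%, 76.3%, 73.1% and 70.0% of all H3K4me2 peaks. At 65 °C/40 min 2 of 3 were met, beside 68.2%, and at 50 °C/5 min 1 of 3, beside 48.4%. None was met at 80 °C/40 min, beside 0.111%, or by FiT-seq H3K27Ac, beside 0.894%.

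**Figure D4:**
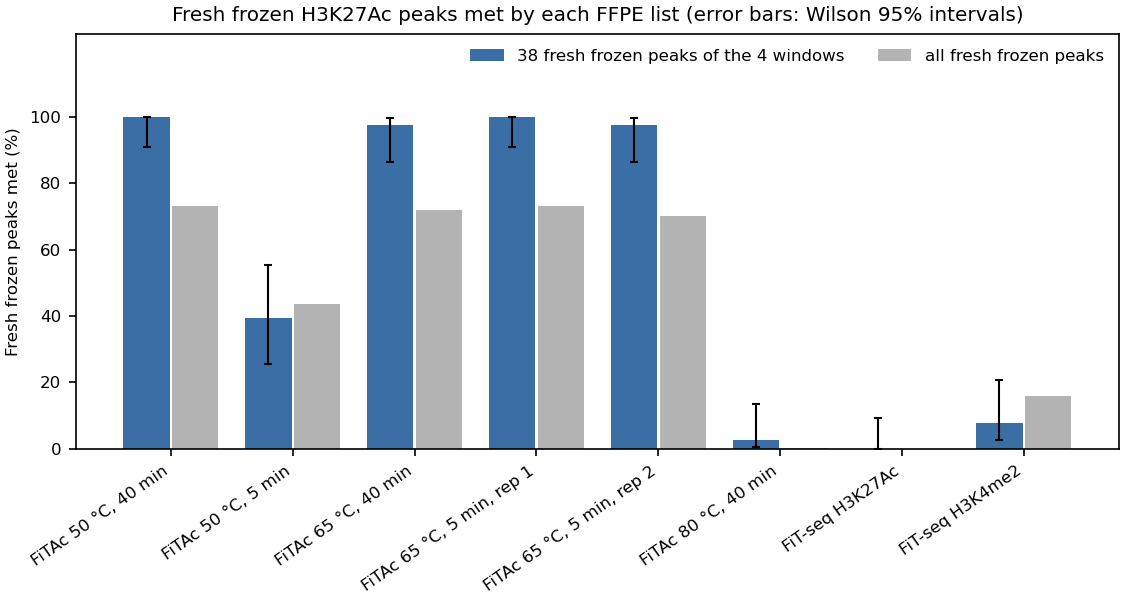
Share of fresh frozen H3K27Ac peaks that meet a peak of each FFPE list (percent, vertical axis), for the 38 peaks of the 4 windows (blue, with Wilson 95% intervals) and for all fresh frozen peaks (grey). The windows stand at 97.4% or 100% in 4 FiTAc-seq libraries, against 70.2% to 73.2% over the genome, and at 39.5% against 43.7% at 50 °C/5 min.

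Counted by bases, FiTAc-seq peaks covered 89.7% of the fresh frozen peak bases of the windows at 50 °C/40 min, 29.8% at 50 °C/5 min, 91.2% at 65 °C/40 min and 92.3% and 91.2% in the pair. Over the genome the shares were 73.9%, 41.6%, 72.3%, 75.2% and 72.4%. Conversely, between 24.1% and 32.0% of the FFPE peak bases in the windows lay in fresh frozen peaks in those lists, except at 50 °C/5 min, where 54.8% did. That share was not computed over the genome. Bases under both peaks were also taken as a share of bases under either. In the same order of lists this was 30.8%, 23.9%, 27.4%, 23.6% and 26.7% in the windows. Over the genome it was 36.3%, 29.3%, 36.8%, 31.3% and 32.3%. Of the FFPE peaks in the windows, 33 of 84 met a fresh frozen peak at 50 °C/40 min (39.3%), beside 49.4% over that list. At 50 °C/5 min 16 of 27 did (59.3%, beside 55.7%), and at 65 °C/40 min 29 of 80 (36.3%, beside 49.6%). In the pair 23 of 74 did (31.1%, beside 44.3%) and 25 of 78 (32.1%, beside 46.4%). In all, 20835 bp lay under a peak in every one of the 4 long lists other than 50 °C/5 min but under no peak of fresh frozen liver, and 3668 of these bases were also under a peak at 50 °C/5 min.

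Part of this added coverage was found in both libraries at 65 °C/5 min. Replicate 2 met 59 of the 74 peaks of replicate 1, and replicate 1 met 66 of the 78 peaks of replicate 2, beside 67.5% and 77.1% over the lists. Counted by bases, 64.9% of window bases under a peak of either library were under both, beside 63.7% over the genome. By window this was 53.4% in Saa, 64.4% in fibrinogen, 75.2% in Hp and 63.6% in Hamp. Of the 51 replicate 1 peaks that met no fresh frozen peak, 38 met a replicate 2 peak, a share not computed over the whole list. These 38 were 19 in the fibrinogen window, 12 in the Hamp window, 6 in the Saa window and 1 in the Hp window. Some of the replicate 2 peaks they met, in the fibrinogen and Hamp windows, did meet a fresh frozen peak. The farthest of the 38 lay 5858 bp from a fresh frozen peak, and 10 were at most 1000 bp away.

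The 3 highest of them in the fibrinogen window were chr3:82810242-82811358, with values of 24.9 and 25.4 in the pair, chr3:82859413-82859965, with 27.1 and 15.8, and chr3:82831335-82832343, with 22.8 and 14.9. Those in the Hamp window were chr7:31727395-31727622, with 15.2 and 24.0, chr7:31748877-31753035, with 17.6 and 15.0, and chr7:31730890-31731257, with 17.6 and 12.8. The second of these Hamp peaks runs past the window's end, and the replicate 2 peak at the first also met a fresh frozen peak. The Hp peak was chr8:112111253-112111772, with 11.4 and 8.87. All 7 had a peak at 40 min at both temperatures, and chr7:31748877-31753035 was the only one with a peak at 50 °C/5 min.

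Set against fresh frozen liver, the share of window bases under a peak at 65 °C/5 min was higher by 18.97 percentage points, with an SD of 2.65 points between the 2 libraries and a difference of 0.843 points over the genome. It was higher by 32.6 points in the Hamp window, 26.7 in the fibrinogen window, 22.0 in the Hp window and 3.87 in the Saa window. The ratios were 8.36, 4.12, 2.94 and 1.67, beside 2.06 over the genome. Neither depth nor peak calling settings are known, and tissue, depth and calling cannot be told apart in these differences.

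Sonication for 40 min rather than 5 min went with more coverage at 50 °C, and with a difference within the spread of the pair over all windows at 65 °C. At 50 °C, sonication for 40 min gave a higher share by 16.6 points, with 22.9 points in the fibrinogen window, 22.1 in Hamp, 21.5 in Hp and 6.06 in Saa, beside 0.744 points over the genome. All of these window differences exceed the SDs of the pair, which were 2.65 points over all windows and between 0.887 and 4.11 in single ones. Both 50 °C libraries lie outside the pair, so its SDs do not measure the spread of these differences. At 65 °C, the share at 40 min minus that at 5 min was -2.47 points, which is less than the SD of 2.65, beside -0.294 points over the genome. It was -0.591 without replicate 1 and -4.34 without replicate 2. In the Saa and Hamp windows the differences of -2.78 and -4.56 points exceeded their SDs of 0.887 and 3.52. Without replicate 1 they were -2.15 and -2.07 points, and without replicate 2 -3.41 and -7.04. In fibrinogen (-1.40) and Hp (-1.62) they did not exceed the SDs and turned to 0.966 and 1.28 without replicate 1. Only 1 library stood behind each value other than the pair's mean, so no p-value was computed. Peaks lay as close as 36 bp in the 40 min lists at 50 and 65 °C, and no closer than 76 bp in those at 5 min. A difference in sequencing or calling cannot be told apart from sonication.

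Homogenization at 65 °C rather than 50 °C went with a higher share at 5 min by 22.3 points, beside an SD of 2.65. The 50 °C/5 min side was 1 library with a list of 38409 peaks, against 60244 and 56632 in the pair. Temperature, depth and calling cannot be told apart in these differences. The difference was 33.0 points in the fibrinogen window, 28.0 in Hamp, 25.2 in Hp and 8.71 in Saa. The fibrinogen ratio was 15.4 and the Saa ratio 10.2, whereas Hp had 4.13 and Hamp 4.08, beside 2.46 over the genome. At 40 min, the share at 65 °C minus that at 50 °C was 3.21 points, beside -0.0665 over the genome. By window, fibrinogen had 8.75 points, more than its SD of 3.34 in the pair, whereas Saa (-0.136), Hp (2.15) and Hamp (1.29) did not exceed theirs. Each side was 1 library outside the pair, so these SDs do not measure the spread of the differences. At 40 min, the share at 80 °C minus that at 65 °C was -23.8 points, with 0.0691% of window bases under a peak at 80 °C against 23.9% at 65 °C. Over the genome it was -1.34 points, with 0.000481% against 1.34%, and the 80 °C list held 65 peaks in all.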

How the data were processed

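Peak lists of 9 ChIP-seq libraries of normal mouse liver were analysed, and the tenth sample, an input, was not analysed here. Reads were aligned with BWA and peaks called with MACS2 on mm9, per the submitters' processing notes, with no version or setting given in the sources used here. The labels' protocols name 2 library kits without tying either to a library. The authors deposited 1 list of 5 columns per library, so peaks were not pooled. The deposited peak values were taken to be −log10 q-values, because the long lists end at about 2, and were used only to describe, rank and filter peaks. Read depth is unknown. Starts are 1-based.

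For each list and window, peaks overlapping the window, the share of its bases under a peak and overlaps of at least 1 bp with other lists were computed, beside the same over the whole list or a genome span of 2575 Mb. Shares of peaks carry Wilson 95% intervals. No p-value was computed, and differences were set beside the SD of the pair at 65 °C/5 min. The overlap and coverage steps were tested on simulated lists. Named in each window were the highest peak of each list with over 5000 peaks, up to 3 top fresh frozen peaks that no long FiTAc-seq list met, up to 3 top peaks shared by the 65 °C/5 min pair that met no fresh frozen peak, and every peak of the shorter lists. Other peaks were named after their values were seen. The members and lists were chosen with earlier results of these data known. A planned list of other acute phase genes was not run, since it needs an mm9 annotation. Alternatives were a minimum −log10 q-value of 5, merging within 500 bp, closing gaps of up to 76 bp, windows widened by 10 kb or narrowed by 5 kb, whole peaks only, other overlap rules and omission of each library of the pair. Promoters were RefSeq's (GRCm38.p6). The tools were Biopython 1.88, matplotlib 3.10.9, scipy 1.17.1, pandas 2.3.3, numpy 2.4.6 and Python 3.11.15.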

Additional observations from a re-analysis of the deposited data

Results flagged for a closer look

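The difference between 40 and 5 min of sonication in the share of window bases under a peak ran in opposite directions at the 2 temperatures. Over all 4 windows 40 min minus 5 min was 16.6 percentage points at 50 °C but -2.47 at 65 °C. The genome moved in the same directions, by 0.744 points at 50 °C and -0.294 at 65 °C, and at 65 °C the ratio of 40 to 5 min was 0.906 in the windows and 0.821 over the genome. In the Saa window it was 6.06 points at 50 °C but -2.78 at 65 °C, and in the Hamp window 22.1 points at 50 °C but -4.56 at 65 °C. No test compared the effects at the 2 temperatures, because only 65 °C/5 min had a second library, so this difference was not tested. The value over all windows at 65 °C was smaller than the SD of the pair, 2.65 points.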

How the results depend on the processing

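Under the alternatives, 184 values of the main results stayed within the spread used for them, 32 moved and none changed sign past it. Keeping peaks with a −log10 q-value of at least 5 left 15 peaks in the windows at 50 °C/5 min. It left 0 at 80 °C, a list that then met 0% of fresh frozen peaks. The mean share met by the pair was 95.6%, and the 50 °C/5 min list met 0% of H3K4me2 peaks. This filter also took low fresh frozen peaks out of the total. The only H3K4me2 peak met at 50 °C/5 min without it had a value of 4.67, below the limit. Merging within 500 bp gave 34, 13, 31, 31.5 and 25 peaks at 50 °C/40 min, 50 °C/5 min, 65 °C/40 min, in the pair and in fresh frozen liver, covered shares of 25.8%, 28.3% and 30.4% at 50 °C/40 min, 65 °C/40 min and in the pair, and differences of 20.6 points for 40 minus 5 min at 50 °C, 25.2 for 65 °C minus 50 °C at 5 min and -28.2 for 80 °C minus 65 °C. The same 3 covered shares were 17.8%, 20.05% and 22.3% with wider windows and 23.9%, 27.9% and 30.6% with narrower ones; 65 °C minus 50 °C at 5 min was then 18.6 and 26.0 points, 80 °C minus 65 °C -20.0 and -27.8 points, and the pair minus fresh frozen liver 21.7 points with narrower windows. The pair met 96.1% of fresh frozen peaks with an overlap of 50% of the shorter peak. With the midpoint rule the shares met were 86.8% at 50 °C/40 min, 21.1% at 50 °C/5 min, 92.1% in the pair and 2.63% for H3K4me2. These stricter shares have no counterpart over all fresh frozen peaks, which were set against the lists with an overlap of 1 bp only. Leaving out either library of the pair gave 74 to 78 peaks, covered shares of 24.5% to 28.2% and 97.4% to 100% of fresh frozen peaks met. It gave 17.1 to 20.8 points against fresh frozen liver, -4.34 to -0.591 for 40 minus 5 min at 65 °C and 20.5 to 24.2 for 65 °C minus 50 °C at 5 min. No paired analysis was possible because only 65 °C/5 min has more than 1 replicate number. Unknown depth limits every peak count, and placement of reads between Saa1 and Saa2 and between Hamp and Hamp2, whose promoters are alike, was not tested.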
